A study of Mus musculus with 2 samples.

Results

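The genes described are the chemokines, interleukins, colony-stimulating factors and leukaemia inhibitory factor (Lif) of mouse embryonic fibroblasts, connective tissue cells cultured from dissociated embryos. They were chosen by symbol alone on the Affymetrix Mouse430_2 array. The symbols taken were Ccl or Il with a number and at most an a or b after it. Cxcl with a number, Cx3cl1, Csf1 to Csf3 and Lif were taken as well. One further gene whose name fits is not analysed here. The rule gave 62 of the 18193 genes that have a probe set with a single gene symbol, covered by 90 probe sets. A further 6 probe sets hold a fitting name among several symbols and were left out, so the families are not complete. RNA was compared between 1 array of cells from Malat1 knock-out mice and 1 array of cells from wildtype mice. Both cultures were of the C57BL/6 strain, came from embryos of embryonic day 13.5 and grew for 2 weeks, untreated, before RNA was taken. The labels do not say which stretch of Malat1 is missing or whether 1 or several embryos were pooled. Since each genotype is represented by 1 array, the differences have no replicate check and no p-value is given.

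Chemokines are small secreted proteins that guide leukocytes along a concentration gradient through G protein-coupled receptors. Their names give the spacing of the first cysteines, CC, CXC or CX3C. Lif, many of the interleukins and some of the colony-stimulating factors act through receptors that signal by JAK kinases and STAT factors. Receptors of the IL-1 family signal by NF-kappaB. Fibroblasts are a known source of chemokines for monocytes and neutrophils, of Il6 and Lif, of the macrophage growth factor Csf1 and of Cxcl12, and many of these genes are induced through NF-kappaB.

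Malat1, a nuclear long noncoding RNA, read 4.53 on the knock-out array and 9.80 on the wildtype array on the log2 signal scale, which follows the genotype labels. Xist, the RNA of the inactive X chromosome, read 11.49 on the knock-out array and 4.50 on the wildtype array. The Y-linked Eif2s3y read 2.81 on the knock-out array and 8.57 on the wildtype array. These are the readings of female cells for the knock-out and of male cells for the wildtype. Sex and genotype therefore cannot be told apart in any difference given here. Each array's median over its probe sets, 5.44 for the knock-out and 5.39 for the wildtype, served as the floor above which a gene is called measured. This floor is a convention and no detection call, since the T cell genes Cd3e, Cd4 and Cd8a also lay above it on both arrays. Over all genes measured on both arrays the median difference, knock-out minus wildtype, was -0.05 with an SD of 0.24 across genes. Different probe sets of one gene differed with a pooled SD of 0.199, over 4881 genes with several measured probe sets.

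Of the 62 genes, 23 were at or above the median of the knock-out array and 23 at or above that of the wildtype array. This was 37.1% on each array, against 64.4% of all genes on the knock-out array and 63.1% on the wildtype array. Each gene is read at its brightest probe set, so a gene with more probe sets passes the floor more easily. The members have 90 probe sets for 62 genes, while all genes have 34945 for 18193. With each gene read at the median over all its probe sets, both arrays measured 20 of the 62 members and 9862 of all 18193 genes. At the brightest probe set these were 22 and 11294. The part of the probe set number in the gap was not tested further. Both arrays measured 22 genes, the knock-out array alone measured Il17b, the wildtype array alone measured Il16, and 38 genes were below both floors. Chemokines made up 16 of the 22, from 31 chemokine genes, and interleukins only 4, from 27 interleukin genes. The remaining 2 were Csf1 and Lif, of the 4 genes for colony-stimulating factors and Lif. Just above the floor were Il7, at 5.64 on the knock-out array and 5.73 on the wildtype array, and Cxcl17, at 5.91 on the knock-out array and 5.45 on the wildtype array, and just below it was Csf3, at 5.43 on the knock-out array and 5.28 on the wildtype array.

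Cxcl5 and Ccl7, chemokines for neutrophils and for monocytes, were the members that differed by at least 1.5-fold, and both were lower in the knock-out. They are 2 of 22 measured members, against 1.61% of all 11294 genes measured on both arrays at least 1.5-fold lower. No member was at least 1.5-fold higher, where 0.832% of all genes were. Cxcl5 was the 1 member at least 2-fold lower, where 0.266% of all genes were, and no member was at least 2-fold higher, where 0.0708% were. Of the 22 measured members 12 were lower and 10 higher in the knock-out, with a median of -0.003, while 59.8% of all measured genes were lower. With the median difference set to 0, after quantile normalization and after loess centring, the split of the 22 was 10 lower and 12 higher, and that of all 11294 genes turned as well, with 5377, 5065 and 5342 lower. The SD of the difference was 0.479 across the 22, Cxcl5 included.

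**Figure D1:**
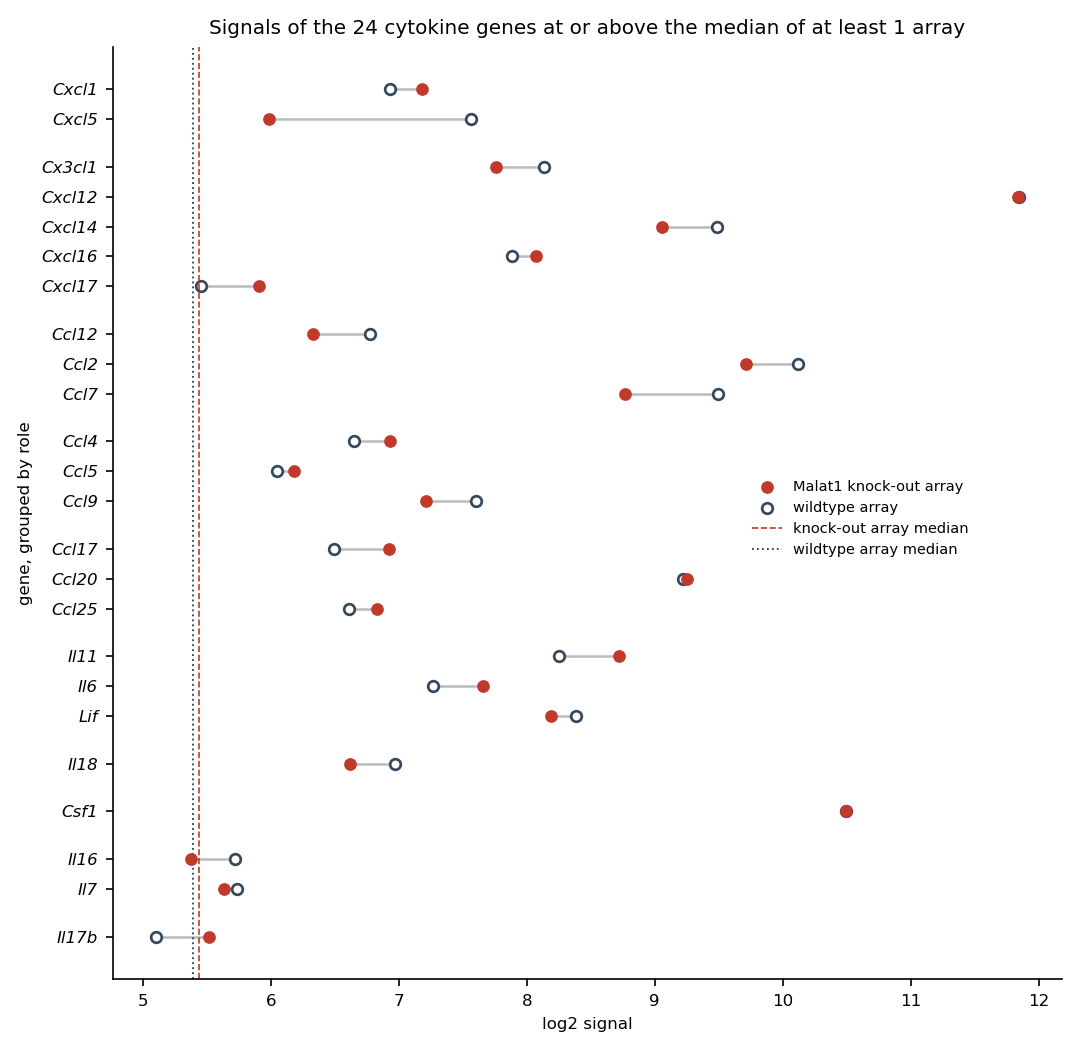
Log2 signals of the 24 genes at or above the median of at least 1 array, with a filled point for the Malat1 knock-out array, an open point for the wildtype array and vertical lines at the 2 array medians. Cxcl5 has the widest gap, 5.99 on the knock-out array against 7.57 on the wildtype array, while the points of Cxcl12, Csf1 and Ccl20 lie on or next to each other.

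Neutrophil-attracting CXC chemokines share the receptor Cxcr2 and lie in a run of neighbouring genes on chromosome 5. Cxcl5, which recruits neutrophils to inflamed tissue, read 5.99 on the knock-out array and 7.57 on the wildtype array, a difference of -1.58 or 2.99-fold lower. It has 1 probe set. Adding 64 to the linear signals reduced the difference to -0.99, just under 2-fold, and a floor at the 75th percentile left the knock-out signal unmeasured. Cxcl1, a chemokine of the same class that fibroblasts release on inflammatory stimulation, did not share the direction of Cxcl5. Its main probe set read 7.18 on the knock-out array and 6.93 on the wildtype array, a difference of 0.25. A second Cxcl1 probe set measured on both arrays differed by 0.10. The remaining one differed by -0.24, but read 5.22, under the floor, on the knock-out array and 5.46, near it, on the wildtype array. Cxcl1 was thus higher at both probe sets measured on both arrays. The design of the main one (_x_at) lets related transcripts hybridize to it. Cxcl2 (3.22 on the knock-out array and 3.03 on the wildtype array), Cxcl3 (2.91 on the knock-out array and 3.35 on the wildtype array) and Cxcl15 (4.29 on the knock-out array and 4.37 on the wildtype array) were below both floors.

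In RefSeq's order the run is Cxcl5, Ppbp, Pf4, Cxcl3, Cxcl15, Cxcl1 and Cxcl2. Ppbp and Pf4, chemokines known from platelets whose names fall outside the rule, are the next neighbours of Cxcl5. Ppbp read 7.31 on the knock-out array and 7.87 on the wildtype array, a difference of -0.56, which is under 1.5-fold. Pf4 read 8.28 on the knock-out array and 8.27 on the wildtype array. The measured genes of the run thus ranged from -1.58 for Cxcl5 to 0.25 for Cxcl1.

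The monocyte chemokines Ccl2, Ccl7 and Ccl12, ligands of Ccr2, lie in a second run, on chromosome 11, and all 3 were lower in the knock-out. Ccl7 read 8.77 on the knock-out array and 9.49 on the wildtype array, a difference of -0.73 or 1.65-fold lower. Ccl2, the main chemokine that draws monocytes from blood, read 9.71 on the knock-out array and 10.12 on the wildtype array, a difference of -0.41. Ccl12, a mouse chemokine close to Ccl2, read 6.33 on the knock-out array and 6.77 on the wildtype array, a difference of -0.45. Each has 1 probe set, and Ccl2 and Ccl12 stayed within 1.5-fold. Under the other 3 scalings, the alternatives that could turn the sign of a gene with 1 probe set, Ccl7 differed by -0.67 to -0.63, Ccl2 by -0.35 and Ccl12 by -0.39 to -0.37. Between and beyond them in RefSeq's order lie Ccl11, which attracts eosinophils, Ccl8 and Ccl1, all below both floors. Their differences were 0.07, 0.39 and 0.15, values that below the floor have no interpretable order. Ccl24, an eosinophil chemokine encoded on chromosome 5, was also below both floors, at 5.20 on the knock-out array and 5.13 on the wildtype array.

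Farther along chromosome 11 lies a run with Ccl5, Ccl9, Ccl6, Ccl3 and Ccl4, known as products of macrophages and T cells. Ccl9, a chemokine for myeloid cells, read 7.21 on the knock-out array and 7.60 on the wildtype array, and both of its probe sets were lower, by -0.39 and -0.37. Ccl4, a chemokine for T cells and monocytes, read 6.93 on the knock-out array and 6.65 on the wildtype array, a difference of 0.28. Ccl5, which T cells make after activation, read 6.18 on the knock-out array and 6.05 on the wildtype array, a difference of 0.13. The genes of this run therefore differed in both directions, all within 1.5-fold. Ccl3 and Ccl6 were below both floors.

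Upstream sequences are shown for Ccl12 and Ccl9, which were lower in the knock-out, and for Cxcl1 and Il6, which were higher at the probe sets that stand for them, since chemokine and interleukin genes are known targets of NF-kappaB. The windows are the 250 bases before the annotated start, from RefSeq on mouse build GRCm38.p6, 5′ to 3′ on the gene's strand. They lie at chr11:82101595-82101844 (plus strand), chr11:83578637-83578886 (minus strand), chr5:90890995-90891244 (plus strand) and chr5:30012864-30013113 (plus strand). Capitals mark letters that match an NF-kappaB motif (GGG, any 2 bases, then TTTCC) or a TATA box, TATAAA, on either strand.
Ccl12: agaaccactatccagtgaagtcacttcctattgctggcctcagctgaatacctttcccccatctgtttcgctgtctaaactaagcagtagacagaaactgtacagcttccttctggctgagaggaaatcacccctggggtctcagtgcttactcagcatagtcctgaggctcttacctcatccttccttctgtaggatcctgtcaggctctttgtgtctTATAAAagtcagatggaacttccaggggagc
Ccl9: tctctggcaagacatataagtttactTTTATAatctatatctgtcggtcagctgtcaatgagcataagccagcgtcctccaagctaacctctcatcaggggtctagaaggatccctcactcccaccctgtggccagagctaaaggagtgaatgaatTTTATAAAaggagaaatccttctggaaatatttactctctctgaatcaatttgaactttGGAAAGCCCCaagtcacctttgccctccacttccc
Cxcl1: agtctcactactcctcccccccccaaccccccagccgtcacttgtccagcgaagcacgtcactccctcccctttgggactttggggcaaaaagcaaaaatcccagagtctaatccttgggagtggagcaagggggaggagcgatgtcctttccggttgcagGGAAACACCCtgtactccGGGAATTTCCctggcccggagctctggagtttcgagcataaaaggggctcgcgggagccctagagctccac
Il6: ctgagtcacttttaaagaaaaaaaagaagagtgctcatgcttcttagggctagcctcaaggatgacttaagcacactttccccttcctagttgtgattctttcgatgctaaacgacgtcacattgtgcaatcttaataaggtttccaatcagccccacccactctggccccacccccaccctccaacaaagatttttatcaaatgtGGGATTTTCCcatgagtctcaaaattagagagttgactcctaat
The Il6 window holds 1 NF-kappaB match, 44 to 35 bases before the start, and the Cxcl1 window holds 2, at 89 to 80 and at 71 to 62 bases. The Ccl9 window holds 1, at 35 to 26 bases, which overlaps a match to the C/EBP motif TTNNGNAA at 38 to 31 bases. The Ccl12 window holds no NF-kappaB match and has a TATA box 31 to 26 bases before the start. Among the windows shown, the NF-kappaB letters occur for Ccl9, which was lower, and for Il6, which was higher. They also occur for Cxcl1, which was higher at both probe sets measured on both arrays. No window was available for Cxcl5, Ccl7 and Ccl2, so the members past 1.5-fold could not be read. The table of windows held 43 of the 62 genes, and 9 of these had an NF-kappaB match in at least 1 window, namely Ccl20, Ccl9, Csf1, Cxcl1, Cxcl2, Cxcl3, Il16, Il6 and Il9. Among all 32841 windows 1.41% had one. The AP-1 motif TGANTCA was found for 9 of the 43 genes, with 6.75% of all windows, and the C/EBP motif for 18, with 36.9% of all windows. All these shares count single windows, whereas the member counts are of genes with a match in any of their windows. The units differ, so the counts and shares cannot be compared directly. A match of letters is a description of the window and shows no binding.

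Chemokines with roles in tissue upkeep stayed within 1.5-fold at the probe sets that stand for them. Cxcl12, which holds blood stem cells and guides migrating progenitors through Cxcr4, read 11.84 on the knock-out array and 11.85 on the wildtype array, and its second probe set read 10.77 on the knock-out array and 10.80 on the wildtype array. A further Cxcl12 probe set read 6.03 on the knock-out array and 5.59 on the wildtype array, a difference of 0.43. Cxcl14, a chemokine of skin and connective tissue, read 9.06 on the knock-out array and 9.49 on the wildtype array, a difference of -0.43, and its second probe set differed by -0.60. Cxcl14 thus passed 1.5-fold at the second probe set alone. Cx3cl1, a membrane-bound chemokine for cells with Cx3cr1, read 7.76 on the knock-out array and 8.14 on the wildtype array, a difference of -0.38, and its second measured probe set differed by 0.15. Cxcl16, also made as a membrane protein, differed by 0.19 at one probe set and by -0.40 at the other. The direction of Cx3cl1 and Cxcl16 therefore depends on the probe set. Cxcl17, a mucosal chemokine, differed by 0.45, from a wildtype signal of 5.45 at the floor. Cxcl13, which organizes B cell follicles, and the interferon-induced Cxcl9 and Cxcl11 were below both floors.

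CC chemokines that direct cells to skin, gut and thymus differed by 0.03 to 0.43 where they were measured. Ccl17, a ligand of Ccr4 on T cells, read 6.92 on the knock-out array and 6.49 on the wildtype array, a difference of 0.43. Ccl25, the thymus and gut chemokine, read 6.83 on the knock-out array and 6.61 on the wildtype array, and its probe sets differed by 0.22 and 0.13. Ccl20, the ligand of Ccr6, read 9.25 on the knock-out array and 9.22 on the wildtype array. None of the 3 reached 1.5-fold. Ccl22, Ccl27a and Ccl28 were below both floors, with differences of 0.54, -0.18 and 0.34.

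**Figure D2:**
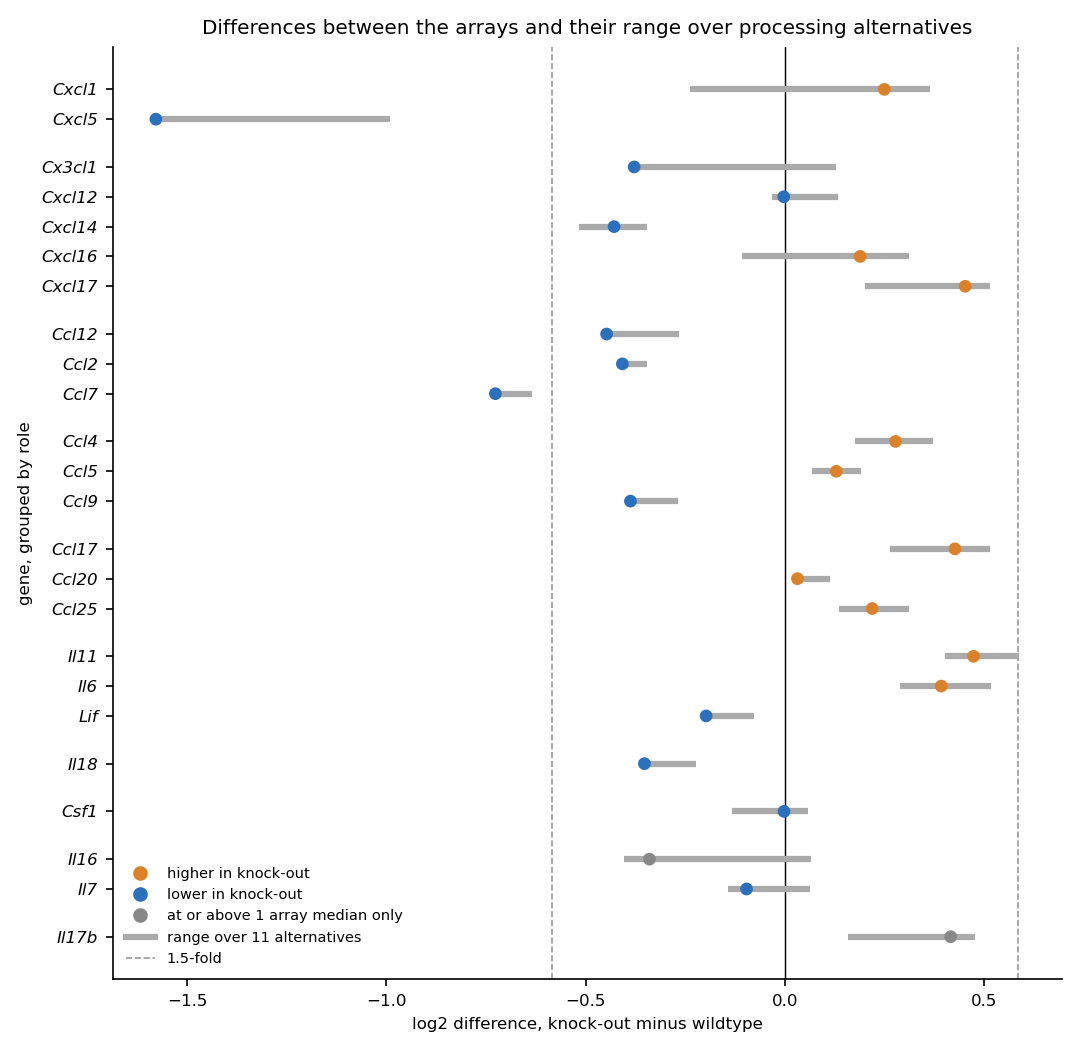
Log2 difference, knock-out minus wildtype, of the same 24 genes grouped by role, with a point for the values as deposited and a grey bar for the range over 11 processing alternatives. Cxcl5 and Ccl7 lie beyond the dashed 1.5-fold line on the lower side, and the bars of Cxcl1, Cx3cl1, Cxcl12, Cxcl16, Csf1, Il7 and Il16 cross 0.

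Among interleukins, the IL-6 family members Il6 and Il11 were higher in the knock-out while their relative Lif was slightly lower. Il6, a cytokine of acute inflammation that fibroblasts secrete, read 7.66 on the knock-out array and 7.27 on the wildtype array, a difference of 0.39. Il11, a fibroblast cytokine tied to tissue fibrosis, read 8.72 on the knock-out array and 8.25 on the wildtype array, a difference of 0.47. After quantile normalization Il11 reached 0.59, just past 1.5-fold, the largest of its values in 11 alternatives, and it was 0.40 at the least. Lif, which keeps mouse embryonic stem cells undifferentiated, read 8.19 on the knock-out array and 8.38 on the wildtype array, a difference of -0.20. Under the 3 scalings Il6 differed by 0.45 to 0.52 and Lif by -0.14 to -0.09. Il31, another ligand of this family made by T cells, was below both floors.

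Growth factors of the myeloid line were represented by Csf1 alone. Csf1, on which macrophages depend for survival, read 10.49 on the knock-out array and 10.50 on the wildtype array. Its 4 probe sets differed by -0.22 to -0.003. Csf2, Csf3 and Il34, the other ligand of the Csf1 receptor, were below both floors, with Il34 at 5.26 on the knock-out array and 4.98 on the wildtype array.

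The IL-1 family and the interleukins of lymphocytes were largely below the floor. Il18, an IL-1 family cytokine released after cleavage, read 6.62 on the knock-out array and 6.97 on the wildtype array, a difference of -0.35. Il1a, Il1b and Il33 were below both floors. Il7, a stromal factor for lymphocyte progenitors, read 5.64 on the knock-out array and 5.73 on the wildtype array. Il16 read 5.38, under the floor, on the knock-out array and 5.72 on the wildtype array, at least 1.21-fold lower, and its other 3 probe sets were below both floors. Il17b read 5.52 on the knock-out array and 5.10, under the floor, on the wildtype array, at least 1.09-fold higher. Both genes read close to the floor. Il2, Il3, Il4, Il5, Il9, Il13, Il15 and Il21 were below both floors, as were all but Il17b of the 9 members from the IL-10, IL-12 and IL-17 families.

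The 38 genes below both floors read from 2.91 to 5.43 on the knock-out array and from 2.69 to 5.28 on the wildtype array. Of these 33 were higher and 5 lower on the knock-out array, with a median difference of 0.19. Dim genes in general moved the same way, since 71.8% of the 6299 genes below both floors were higher on the knock-out array, with a median of 0.15. After loess centring, which removes a shift that depends on signal, 23 of the 38 were higher and 15 lower, with a median of 0.07. The largest differences in this range were Ccl22 at 0.54 and Il31 at 0.51, and no member below both floors reached 1.5-fold. Most dim genes did not either, since 6066 of the 6299 genes below both floors were within 1.5-fold.

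**Figure D3:**
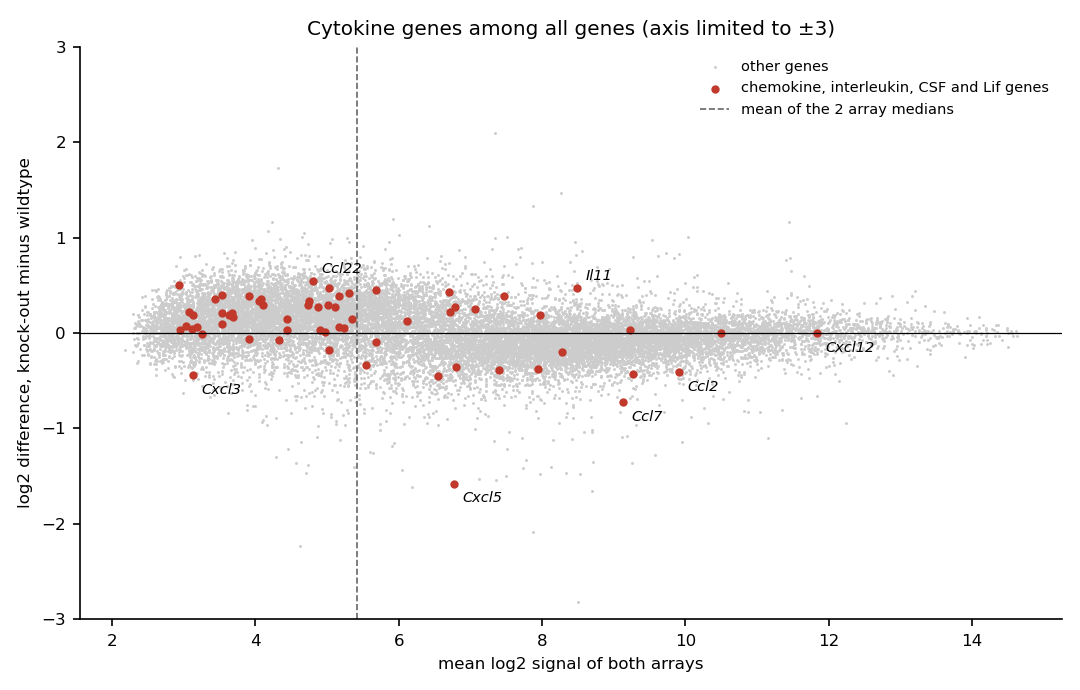
Log2 difference, knock-out minus wildtype, against the mean log2 signal of both arrays, with the 62 genes in red over all other genes in grey and a dashed line at the mean of the array medians. Left of the line the red points lie mostly above 0, as the grey cloud does, and right of it Cxcl5, at -1.58, and Ccl7, at -0.73, are the lowest red points.

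Several probe sets of one gene were measured on both arrays for 8 members. For 5 of them, Ccl25, Ccl9, Csf1, Cxcl1 and Cxcl14, these probe sets shared a sign, and for Cx3cl1, Cxcl12 and Cxcl16 they did not. Cxcl5, Ccl7, Ccl2, Ccl12, Il6 and Il11 have 1 probe set each, so their differences rest on a single reading per array. Probe sets of one gene share the RNA and are no replicates.

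**Figure D4:**
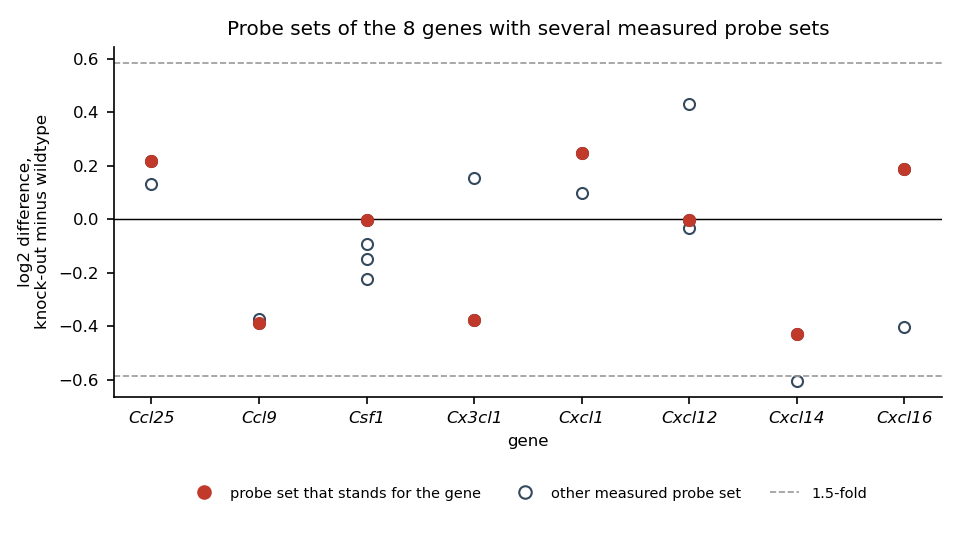
Log2 difference, knock-out minus wildtype, of each measured probe set of the 8 genes with several, with the probe set that stands for the gene filled and the others open. The probe sets of Ccl9, Cxcl14 and Csf1 all lie at or below 0, and those of Cx3cl1, Cxcl12 and Cxcl16 lie on both sides.

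The receptors of these ligands were read from the same arrays. Of 21 chemokine receptor genes matched on the array 7 were measured on both arrays, with a median of 0.11, 1 at least 1.5-fold lower and none higher by that size. Ackr3, which takes up Cxcl12 without G protein signalling, read 8.22 on the knock-out array and 8.83 on the wildtype array, 1.53-fold lower at its 1 probe set. Ccr2, the receptor of the monocyte chemokines, read 5.86 on the knock-out array and 5.53 on the wildtype array, near the floor, Ccr1 differed by -0.23 and Ccrl2 by 0.22. Cxcr2 and Cxcr4, the signalling receptors of Cxcl5 and Cxcl12, were below both floors and are named after their values were seen.

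Receptors for interleukins, Lif and colony-stimulating factors were mostly lower in the knock-out. Of 39 matched genes 18 were measured on both arrays, 15 lower and 3 higher, with a median of -0.28 against -0.05 for all measured genes. Under the other 3 scalings 12 to 14 of the 18 were lower, with medians of -0.22 to -0.18. Il4ra, the receptor for Il4 and Il13, was 1.52-fold lower at its main probe set, at 7.29 on the knock-out array and 7.89 on the wildtype array, while the remaining Il4ra probe sets differed by -0.14 and 0.14. Il6st, the gp130 chain through which Il6, Il11 and Lif all signal, read 10.10 on the knock-out array and 10.50 on the wildtype array, a difference of -0.40. Csf2ra, a receptor chain for Csf2, differed by -0.43, and Il17re, a receptor chain of the IL-17 family, by 0.47. Ligands and receptors of one pathway thus differed in opposite directions for Il6 and Il6st. Il6ra, the chain that binds Il6 and is named after its value was seen, was 0.35 higher.

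Secreted cytokines and antagonists outside the naming rule included a receptor antagonist that was lower in the knock-out at every probe set. Of 17 matched genes 13 were measured on both arrays, with a median of 0.07, and each direction had 1 gene past 1.5-fold. Il1rn, the antagonist that blocks the receptor of Il1a and Il1b, read 6.77 on the knock-out array and 7.90 on the wildtype array, 2.19-fold lower, and its other probe sets were lower too, by -1.23 and -0.67. Tslp, an epithelial and stromal cytokine that acts on dendritic cells, read 6.99 on the knock-out array and 6.18 on the wildtype array, 1.75-fold higher at its 1 probe set. Clcf1, a ligand of the IL-6 family, differed by -0.55, and Ppbp by -0.56 as given above.

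Genes that carry or regulate cytokine signals were mostly slightly lower. Of 17 measured genes of the NF-kappaB pathway 14 were lower, with a median of -0.17, and 13 under each of the other 3 scalings. Against 1.61% of all measured genes, 2 of the 17 were at least 1.5-fold lower. These were Nfkbie, an inhibitor of NF-kappaB, at 6.07 on the knock-out array and 7.03 on the wildtype array, and Bcl3, a nuclear cofactor of NF-kappaB, at 6.71 on the knock-out array and 7.49 on the wildtype array. Nfkb2 differed by -0.31, while Tnfaip3, a feedback inhibitor induced by NF-kappaB, was 0.44 higher. Of 14 measured JAK-STAT genes 11 were lower, with a median of -0.21 and none past 1.5-fold, and 10 or 11 were lower under the other scalings. Socs3, the feedback inhibitor of gp130 signalling, differed by -0.56. Pias3, Stat6 and Stat5b differed by -0.41, -0.40 and -0.39. Of 12 measured C/EBP and AP-1 factors 9 were lower, with a median of -0.08, including Cebpb, an activator of Il6, at -0.50, Junb at -0.46, Cebpg at -0.24 and Cebpd at -0.21. This count of lower genes was 6 or 7 of 12 under the other scalings. All 12 measured genes listed as controlling cytokine mRNA decay, Elavl1, Tia1 and Tial1 among them, were lower, with a median of -0.14. Under each of the other scalings 8 of the 12 were lower. Zfp36l2, which binds AU-rich elements, differed by -0.42, Khsrp by -0.32, Rc3h2 by -0.27 and Tial1 by -0.20, none past 1.5-fold. Over all measured genes 59.8% were lower with the values as deposited, while under each of the other scalings lower genes were fewer than higher ones.

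**Figure D5:**
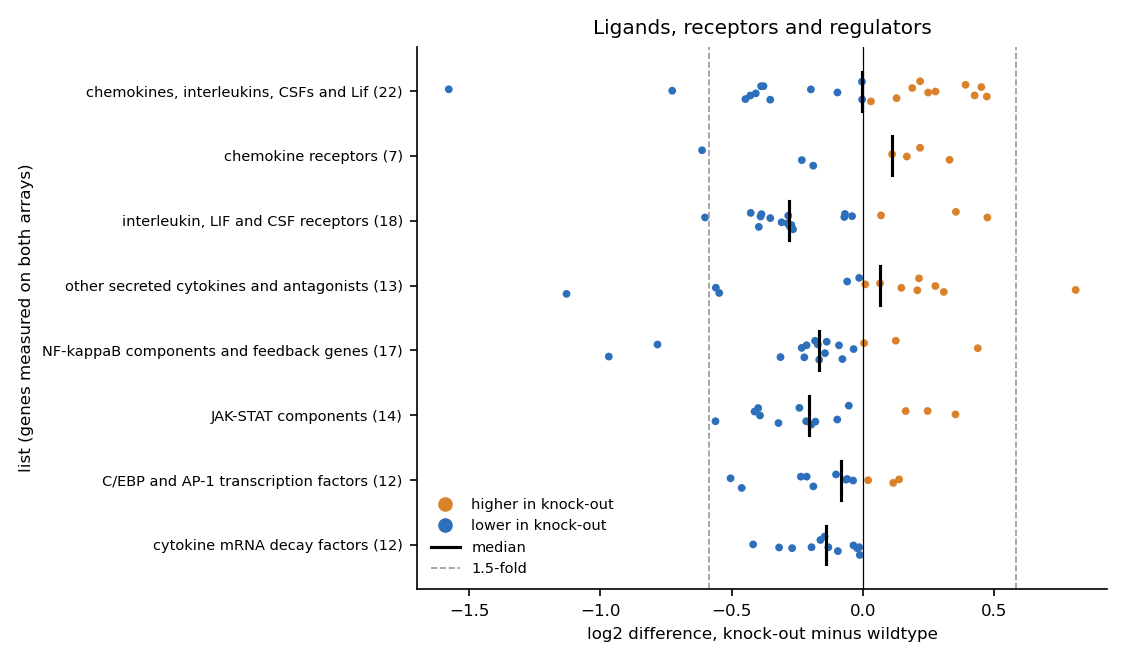
Log2 difference, knock-out minus wildtype, of each gene measured on both arrays, for the cytokine genes and for 7 lists of receptors, other secreted factors and regulators, with a black bar at each median and dashed lines at 1.5-fold. The cytokine genes spread on both sides of 0, whereas the interleukin receptors have a median of -0.28 and the JAK-STAT genes of -0.21.

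Markers of the cells that could make these cytokines were read on the same arrays, and their part in the differences was not tested. Fewer cells of a type and less RNA per cell cannot be told apart in such bulk RNA. All 11 matched fibroblast markers were measured on both arrays, 7 lower and 4 higher in the knock-out, and the sum of their linear signals was 85243 on the knock-out array and 94424 on the wildtype array, and 81766 on the knock-out array and 87719 on the wildtype array without Col1a1. Macrophages are known to make Ccl2, Ccl7, Ccl9 and Ccl12, which were lower, and Ccl4 and Ccl5, which were higher in the knock-out. Of 15 macrophage markers 14 were measured on both arrays and 10 of these were lower, with a median of -0.25. Their summed signal was 4662 on the knock-out array and 5610 on the wildtype array, with Itgam below both floors. Without Lyz2 the sums were 2957 on the knock-out array and 3255 on the wildtype array. Lyz2 differed by -0.46 and Mrc1 by -0.59, while Csf1r, Cd14, Fcer1g and Cx3cr1 were higher, by 0.07 to 0.17. All 7 matched markers of granulocytes and mast cells were below both floors, with summed signals of 132.9 on the knock-out array and 120 on the wildtype array. Of 7 matched lymphocyte markers 3 were measured and higher in the knock-out, by 0.21 to 0.53, with a summed signal of 375 on the knock-out array and 304 on the wildtype array, and Cd3g, Cd79a, Ms4a1 and Nkg7 below both floors. Of 8 endothelial markers 4 were measured and all were higher, with summed signals of 1361 on the knock-out array and 864 on the wildtype array, and Pecam1, Cdh5, Tie1 and Tek below both floors. Emcn, an endothelial mucin, was 2.77-fold higher, and without it the endothelial sums were 850.4 on the knock-out array and 679.8 on the wildtype array. Of 9 epithelial markers 5 were measured on both arrays and all were higher, with Cldn4 2.18-fold higher. Krt5 and Krt8 were measured on the knock-out array alone, and Cdh1 and Krt14 were below both floors. The summed signals of the 9 were 1262 on the knock-out array and 982 on the wildtype array. Without Krt18 the sums were 938.1 on the knock-out array and 747.3 on the wildtype array.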

How the data were processed

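Total RNA of 1 Malat1 knock-out and 1 wildtype culture was hybridized to Affymetrix Mouse430_2 arrays, labelled from 100 ng with a 3′ in vitro transcription kit per the labels' protocols. The authors deposited a single value for each probe set, taken here as a log2 signal from the range of the values. The summarization and normalization methods were not given in the sources used here. Gene names came from the platform annotation (34945 probe sets with 1 symbol, 932 with several and 9160 without, besides 64 controls), and all 62 members matched RefSeq by gene identifier. Upstream windows are RefSeq's. A gene was represented by its probe set with the highest mean signal, and ratios against an array below its median are bounds against that median. Members, lists and tests were chosen with earlier results of these data known. The named genes are all members above either median, the 5 nearest below (Csf3, Ccl3, Ccl8, Ccl24 and Il34), and up to 4 genes of each pathway list with the largest difference. Others are said to be named after their values were seen, or are chromosomal neighbours, markers or counted genes. Alternatives covered scaling (median, quantile, loess with span 0.3), floor, pseudocount and probe set choice. Python 3.11.15, pandas 2.3.3 and statsmodels 0.14.6 were used. The number of arrays limits the precision.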

Additional observations from a re-analysis of the deposited data

How the results depend on the processing

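No paired analysis was possible because there was 1 array for each genotype, and for the same reason no array could be left out. The count of members measured on both arrays, 22, became 10 with the floor at the 75th percentile, 35 at the 40th and 62 without a floor, as the construction of these floors entails. With the floor at the 75th percentile 1 member (Ccl7) stayed at least 1.5-fold lower and 0 at least 2-fold lower, because the knock-out signal of Cxcl5 fell under that floor. Of all 6843 genes measured on both arrays at that floor, 0.979% were at least 1.5-fold lower. With 64 added to linear signals 0 members were at least 2-fold lower, since this shrinks the differences of dim genes. After quantile normalization 1 of the 22 members, Il11, was at least 1.5-fold higher, where 1.46% of all measured genes were. The cause was not tested. Of 22 members measured on both arrays 16 kept their sign in all 11 alternatives, and Csf1, Cx3cl1, Cxcl1, Cxcl12, Cxcl16 and Il7 did not, though for a gene with 1 probe set only the 3 scalings could turn the sign. Of 264 single differences 253 moved by less than 0.199, the spread between probe sets, and 11 by more. A change of floor cannot move a difference, and a change of probe set choice cannot move a gene with 1 probe set. Part of the 253 was therefore fixed in advance, and the count is no measure of robustness. Among the 11 were Cxcl5 (-1.37 with 16 added to linear signals and -0.99 with 64 added) and Cx3cl1 (0.13 with the median over all probe sets). Cxcl16 (-0.11 with that median) and Cxcl1 (-0.24 without the _x_at and _s_at probe sets) were also among them.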

Other observations

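Regulators with several probe sets, named here after their values were seen, were read at each probe set. The probe sets of Socs3 differed by -0.56, -0.46 and -0.39, and those of Cebpb by -0.50 and -0.57. The measured probe sets of Il6st differed by -0.40, -0.44 and -1.06, the last at 7.53 on the knock-out array and 8.59 on the wildtype array, which is past 2-fold. Both probe sets of Tnfaip3 were higher, by 0.44 and 0.50, and the second one was measured on the knock-out array alone. The main Nfkbie probe set differed by -0.97, while the second read 5.13, under the floor, on the knock-out array and 5.47 on the wildtype array. The readings of Il6st and Nfkbie thus differed in size between probe sets. Probe sets of one gene share the RNA, so these readings are no replicates.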
